A study of Mus musculus with 17 samples.

Results

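The genes described here are the listed targets and partners of ATF4 and of the unfolded-protein response, read in C2C12 cells that carried either a vector, SRF or an SRF fusion. A list of 39 symbols was matched to the gene column of the count table, and 38 of the 15062 genes in that table were found. They form an amino-acid response arm with 24 of its 25 listed symbols and an endoplasmic reticulum arm with all of its 14. Fgf21, a secreted hormone of the amino-acid response arm, was not analysed here beyond its promoter sequence. C2C12 is an established mouse myoblast line, and every library came from it, grown in DMEM with fetal bovine serum. The 6 groups are named by what the cells received: pMSCV (the name of a retroviral vector), SRF (serum response factor), and 4 fusions of SRF, with RELA (SRF-RELA), ICA1L (SRF-ICA1L), FOXO1 (SRF-FOXO1) or PDGFRB (SRF-PDGFRB). SRF-PDGFRB had 2 libraries and the other 5 groups 3 each, 17 in all, and polyadenylated RNA was sequenced from each. The labels do not say whether a line is a clone, or whether replicates came from separate cultures, so p-values measure the spread between these libraries, which may be technical.

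ATF4 is a transcription factor whose translation increases when the initiation factor eIF2 is phosphorylated by kinases that sense amino-acid shortage, endoplasmic reticulum stress, viral RNA or low heme. It drives genes for amino-acid synthesis, import and tRNA charging, and genes that end or outlast the response, among them Trib3, Ddit3 and Ppp1r15a. The endoplasmic reticulum arm responds to unfolded protein through ATF6 and XBP1, which raise chaperones, disulfide isomerases and the machinery that removes misfolded protein; in muscle precursors this response is known to be engaged during differentiation.

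Library totals ran from 20901442 to 23543734 counts. Levels are given as CPM, the counts of a gene relative to its library's TMM-scaled total, and replicates are always listed in the order 1, 2, 3. Srf itself lay between 678 and 1673 CPM in SRF and between 66.6 and 93.8 CPM in pMSCV. It spanned 70.5 to 81.4 CPM in SRF-PDGFRB, within the pMSCV range. SRF-FOXO1 (71.8 to 105 CPM) and SRF-RELA (85.0 to 155 CPM) overlapped that range, and SRF-ICA1L (121 to 279 CPM) lay above it. The 5' end of a fusion cannot be told apart from the endogenous gene in these counts. All 5 myoblast markers (Myod1, Myf5, Cdh15, Des and Pax7) had rows, none was at 0 in any library, and their summed level ran from 67.6 to 1451 CPM. Pax7, a marker of satellite cells, stayed between 0.0459 and 7.41 CPM. Markers of blood (1 of 3 with a row), endothelium (1 of 3) and epithelium (1 of 3) summed to at most 5.33, 2.72 and 0.553 CPM. In bulk RNA, fewer cells of a type and less RNA per cell cannot be told apart. The 2 SRF-PDGFRB libraries stood far apart: the muscle regulator Myog was at 0.230 CPM in replicate 1 and 85.5 in replicate 2, and the myoblast markers summed to 67.6 and 1451 CPM.

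Promoter windows (250 bases before to 50 after the RefSeq start site, GRCm38.p6) were matched for 33 of the 39 symbols. The endoplasmic reticulum stress response element, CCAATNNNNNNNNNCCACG on either strand, was found in 6 of 12 matched genes of the endoplasmic reticulum arm and in 0 of 21 of the amino-acid arm, against 0.119% of 32851 promoters. The C/EBP-ATF response element, TGATGNAAN on either strand, was found in 7 of 21 and 1 of 12, against 3.95% of promoters. Another motif, TGACGTGG, was found in neither arm and in 0.676% of promoters. A match is a description of letters, not a site of binding. The stretches below are shown because their genes carry the results that follow; capitals mark the match, and a match on the opposite strand reads as its reverse complement. The first 5 hold the endoplasmic reticulum stress response element, at chr2:34772020-34772048 (Hspa5, + strand), chr8:84847055-84847113 (Calr, - strand), chr14:118937807-118937865 (Dnajc3, + strand), chr12:17266471-17266529 (Pdia6, + strand) and chr15:88819500-88819558 (Creld2, + strand).
Hspa5: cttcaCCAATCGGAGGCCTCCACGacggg
Calr: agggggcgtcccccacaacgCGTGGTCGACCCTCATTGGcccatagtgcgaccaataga
Dnajc3: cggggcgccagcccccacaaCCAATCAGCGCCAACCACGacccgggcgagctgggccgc
Pdia6: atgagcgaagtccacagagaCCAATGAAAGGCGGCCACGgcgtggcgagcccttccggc
Creld2: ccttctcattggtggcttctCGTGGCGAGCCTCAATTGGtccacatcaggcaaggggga
The next 4 hold the C/EBP-ATF response element, at chr6:7693214-7693242 (Asns, - strand), chr2:119351028-119351076 (Chac1, + strand), chr3:50443651-50443699 (Slc7a11, - strand) and chr8:94386296-94386344 (Herpud1, + strand). Herpud1 is the only gene of the endoplasmic reticulum arm with this element in its window, and the Slc7a11 stretch also holds its other match, on the opposite strand and left in lower case.
Asns: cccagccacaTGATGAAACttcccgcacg
Chac1: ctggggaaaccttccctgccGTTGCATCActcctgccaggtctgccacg
Slc7a11: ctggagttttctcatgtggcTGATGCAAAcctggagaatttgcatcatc
Herpud1: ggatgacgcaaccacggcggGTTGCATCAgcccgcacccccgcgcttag

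**Figure D1:**
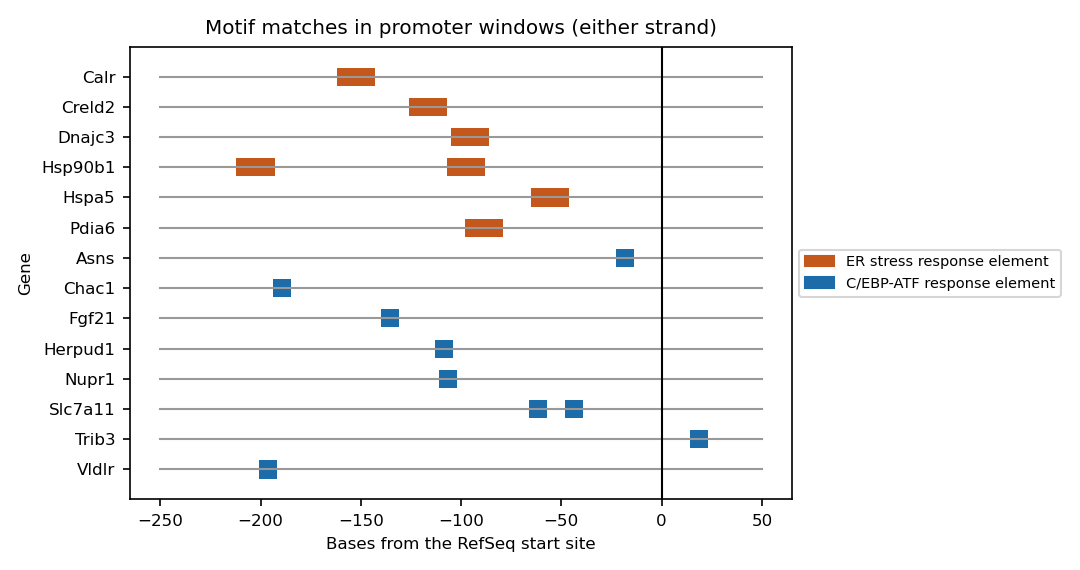
Position of motif matches in the promoter windows of 14 genes, in bases from the RefSeq start site (x axis, 0 at the start); grey lines are the windows and coloured bars the matches. The endoplasmic reticulum stress response element lies upstream of the start in all 6 genes that hold it, and Hsp90b1 and Slc7a11 hold 2 matches each.

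Against pMSCV, the median of the amino-acid arm was below 0 and that of the endoplasmic reticulum arm above 0 in all 4 fusion lines. The signs were the same in SRF (-0.10 and 0.09). Leaving out 1 library could turn the endoplasmic reticulum sign in SRF-FOXO1, SRF-PDGFRB and SRF, and the amino-acid sign in SRF alone. No member passed the test between lines when replicate number was left out of the fit. With edgeR's quasi-likelihood test and Benjamini-Hochberg adjustment over 15062 genes, 0 of 38 members were called at an adjusted p under 0.05 in any of 11 comparisons of lines. The share of all genes called was as low: against pMSCV it was 0.710% in SRF-FOXO1, 0.0199% in SRF-PDGFRB, 0.00664% in SRF, and 0% in SRF-RELA and SRF-ICA1L. Against SRF it was 0.0531% in SRF-PDGFRB, 0.00664% in SRF-RELA and in SRF-FOXO1, and 0% in SRF-ICA1L. It was 0.0199% for the 4 fusions averaged against both controls, and 0.139% for SRF-PDGFRB against the other 3 fusions.

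At an unadjusted p under 0.05, 8 amino-acid genes were lower and 3 endoplasmic reticulum genes higher in SRF-FOXO1 than in pMSCV, where 20.9% of all genes passed in either direction. The 3 of 14 lay near that share. For the 4 fusions averaged the counts were 9 and 3 (18.5% of all genes). In SRF-PDGFRB they were 7 and 3 (7.70%), in SRF-RELA 1 and 3 (8.05%), in SRF-ICA1L 1 and 2 (6.23%), and in SRF 0 and 0 (3.34%). Against SRF the counts were 8 and 1 in SRF-FOXO1 (19.2%), 6 and 0 in SRF-PDGFRB (5.03%), 1 and 0 in SRF-RELA (3.21%), and 0 and 0 in SRF-ICA1L (1.56%), and they were 0 and 0 for SRF-PDGFRB against the other fusions (2.97%). DESeq2 called 5 amino-acid genes lower and Dnajc3 higher in SRF-FOXO1 against pMSCV (9.07% of genes), and Shmt2 and Gdf15 lower against SRF (3.97%). For the 4 fusions averaged it called 7 amino-acid genes lower and Dnajc3 and Calr higher (7.03%). With replicate number as a term in all 17 libraries, edgeR called 6 amino-acid genes lower and Dnajc3 and Calr higher in SRF-FOXO1 against pMSCV (6.78% of genes). It called Gdf15 lower in SRF-PDGFRB against pMSCV (0.332%), and 7 amino-acid genes lower and Dnajc3 and Calr higher for the 4 fusions averaged (3.88%). Over all genes the numbers did not pair SRF-FOXO1 with pMSCV, or SRF-PDGFRB with any other line. Same-numbered SRF-FOXO1 and pMSCV libraries had r of 0.170, -0.195 and 0.013. SRF-PDGFRB replicate 2 deviated with the replicate 3 libraries of the other lines (r of 0.249 to 0.637). The median log2 fold change against pMSCV in the amino-acid arm was -0.58 in SRF-FOXO1, -0.44 in SRF-PDGFRB, -0.34 in SRF-ICA1L, -0.30 in SRF-RELA and -0.10 in SRF, where the median of all genes lay within 0.02 of 0. In the endoplasmic reticulum arm it was 0.07, 0.21, 0.26, 0.29 and 0.09 in the same order. The endoplasmic reticulum median was -0.06 in SRF-FOXO1 without its replicate 2 and 0.31 without pMSCV replicate 2. It was -0.03 in SRF-PDGFRB without its replicate 1. The amino-acid median stayed below 0 in the 4 fusion lines without any 1 library. It ranged from -0.96 (without SRF-FOXO1 replicate 2) to -0.42 in SRF-FOXO1. In SRF-PDGFRB it ranged from -0.91 (without SRF-PDGFRB replicate 1) to -0.24.

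The replicate numbers carried much of the spread. In SRF-RELA, SRF-ICA1L, SRF and pMSCV, libraries of the same number deviated together from their group means over all genes, with r between 0.392 and 0.789, and no pair of different numbers exceeded 0.114. SRF-FOXO1 libraries did so with SRF alone (r of 0.220, 0.253 and 0.330), and replicate 2 of SRF-PDGFRB went against the other replicate 2 libraries of SRF (r of -0.392), SRF-ICA1L (-0.386) and SRF-FOXO1 (-0.509). A fit of the 12 libraries of the first 4 lines with replicate number as a term (the blocked fit) had a biological coefficient of variation of 18.6%, against 34.6% in the same 12 without the term and 36.5% in all 17 by group. In the same 12 libraries without the term, 0 members were called, with 5 amino-acid and 3 endoplasmic reticulum genes at an unadjusted p under 0.05 for both fusions averaged against both controls, where 9.88% of all genes passed that threshold.

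In the blocked fit, 2 of 24 amino-acid genes were lower and 1 of 14 endoplasmic reticulum genes was higher in SRF-ICA1L than in pMSCV, where 2.87% of 14937 genes were called. In SRF-RELA against pMSCV, 3 amino-acid genes were lower and 5 endoplasmic reticulum genes higher, where 6.15% of genes were called. With SRF-ICA1L and SRF-RELA averaged against pMSCV and SRF averaged, 5 amino-acid genes were lower, 1 was higher and 4 endoplasmic reticulum genes were higher, against 8.13% of all genes. Against SRF alone, 1 member was called in SRF-RELA (Gdf15; 0.690% of genes) and 0 in SRF-ICA1L (0.0870%), with 6 amino-acid and 4 endoplasmic reticulum genes at an unadjusted p under 0.05 in the latter (9.15% of all genes) and 1 and 2 called by DESeq2 (1.23%). SRF against pMSCV had 0 (0.0134%), with 1 and 3 at an unadjusted p under 0.05 (14.8% of all genes) and 0 called by DESeq2 (1.97%). DESeq2 with the same term called 7.28% of genes in SRF-ICA1L and 10.6% in SRF-RELA against pMSCV, with 7 amino-acid genes in each. It called 5 endoplasmic reticulum genes in SRF-ICA1L, and that count is not given here for SRF-RELA. In SRF-RELA against SRF it called 4.31% of genes. The summed myoblast markers differed between the lines too, at 909 to 1266 CPM in pMSCV, 499 to 1006 in SRF, 286 to 769 in SRF-ICA1L, 220 to 498 in SRF-RELA and 127 to 168 in SRF-FOXO1. The fibroblast-like or pericyte-like markers summed to 158 to 451 CPM in pMSCV, 177 to 350 in SRF, 315 to 529 in SRF-ICA1L, 387 to 568 in SRF-RELA and 400.4 to 721 in SRF-FOXO1. Markers of differentiating muscle (8 of 10 with a row) summed to 130.0 to 258 CPM in pMSCV, 31.5 to 85.9 in SRF, 44.0 to 79.6 in SRF-ICA1L, 33 to 209 in SRF-RELA and 29.8 to 54.9 in SRF-FOXO1. The part of these markers in the results between lines was not tested.

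**Figure D2:**
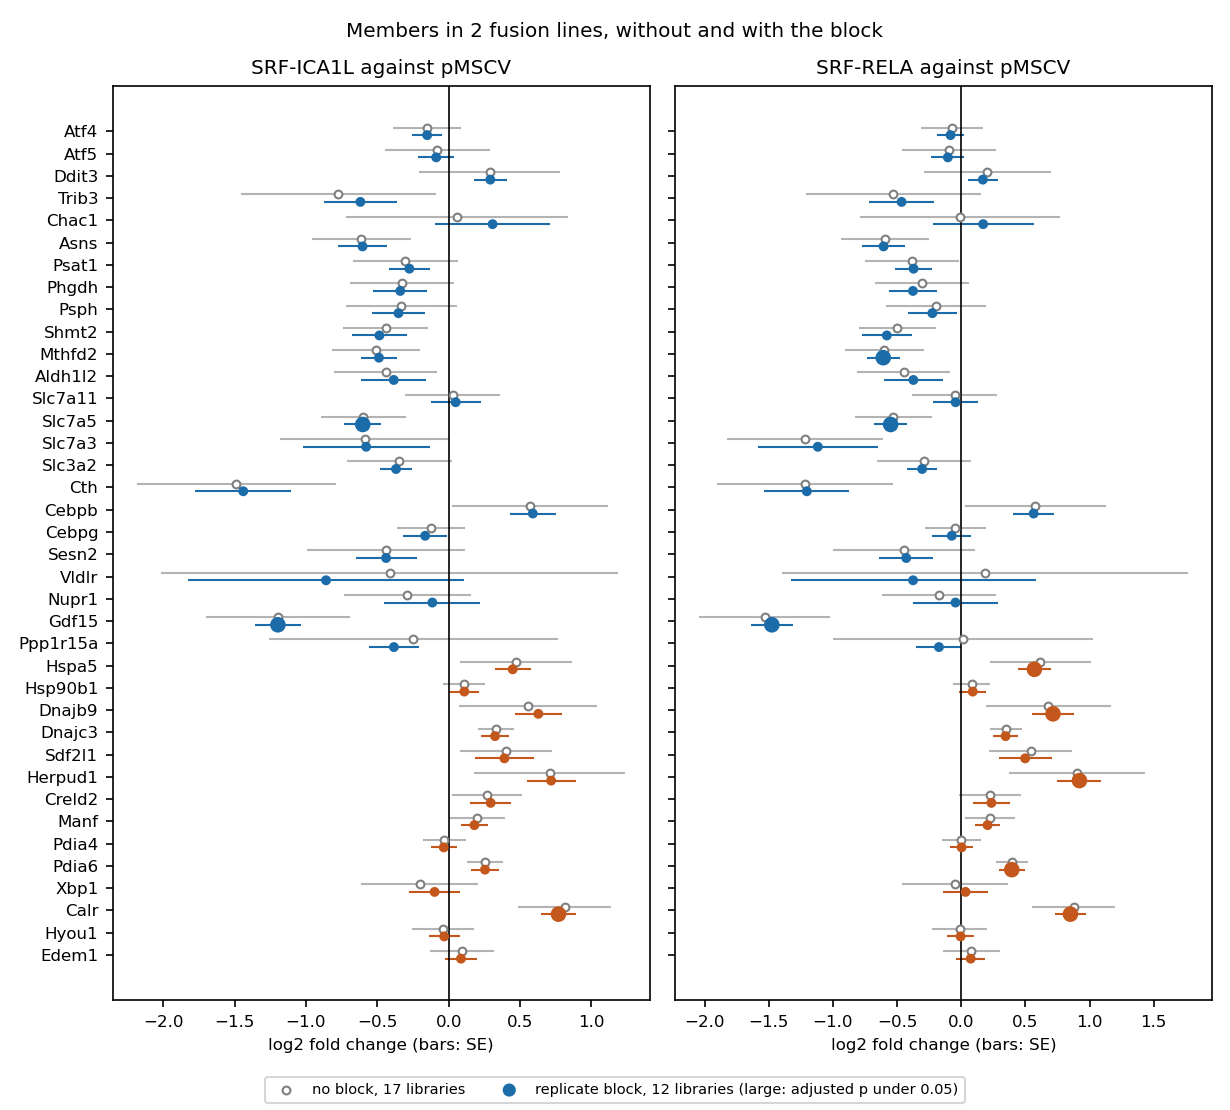
Log2 fold change against pMSCV of the 38 members in SRF-ICA1L and SRF-RELA (x axis; bars are SE); open circles are the fit of 17 libraries without replicate number, and filled circles the blocked fit of 12, large where the adjusted p was under 0.05. Estimates move by a median of 0.02 between the fits in each line, and most in Vldlr (0.44 and 0.56), while the bars shorten, and the called genes are Slc7a5, Gdf15 and Calr in SRF-ICA1L and 8 genes in SRF-RELA.

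Gdf15, a secreted cytokine induced by cellular stress, had the largest called differences between lines among the members. Its level was 75, 84.1 and 37.8 CPM in pMSCV, 55.1, 76.1 and 31.1 in SRF, 26.1, 25.3 and 16.6 in SRF-RELA, 24.4, 42.5 and 19 in SRF-ICA1L, 9.28, 27.9 and 6.47 in SRF-FOXO1, and 23 and 20.5 in SRF-PDGFRB. Every SRF-FOXO1, SRF-RELA and SRF-PDGFRB library lay below every pMSCV and SRF library, and SRF-ICA1L overlapped both. The share of all genes whose libraries separate in this way is not given, here or for the members below. In the blocked fit it fell by 1.20 (log2, SE 0.16, adjusted p = 0.00806) in SRF-ICA1L against pMSCV. In SRF-RELA it fell by 1.48 (log2, SE 0.16, adjusted p = 0.00226) against pMSCV, and it fell by 1.18 (log2, SE 0.16, adjusted p = 0.0144) against SRF. The calls against pMSCV were kept without any 1 library, whereas the call against SRF was kept without SRF-RELA replicate 3 alone. Between SRF-FOXO1 and pMSCV the log2 difference was -2.17 (log2, SE 0.52, adjusted p = 0.0539) without the block, and of the fits that left out 1 library it passed only without SRF-FOXO1 replicate 2. It also passed with DESeq2 (-2.17, adjusted p = 0.00129) and with replicate number as a term in all 17 libraries (-2.30, adjusted p = 0.00721). With SRF-FOXO1 and SRF fitted alone as numbered pairs, Gdf15 was the 1 member called (1.29% of 14536 genes), at -2.07 (log2, SE 0.24, adjusted p = 0.0407).

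**Figure D3:**
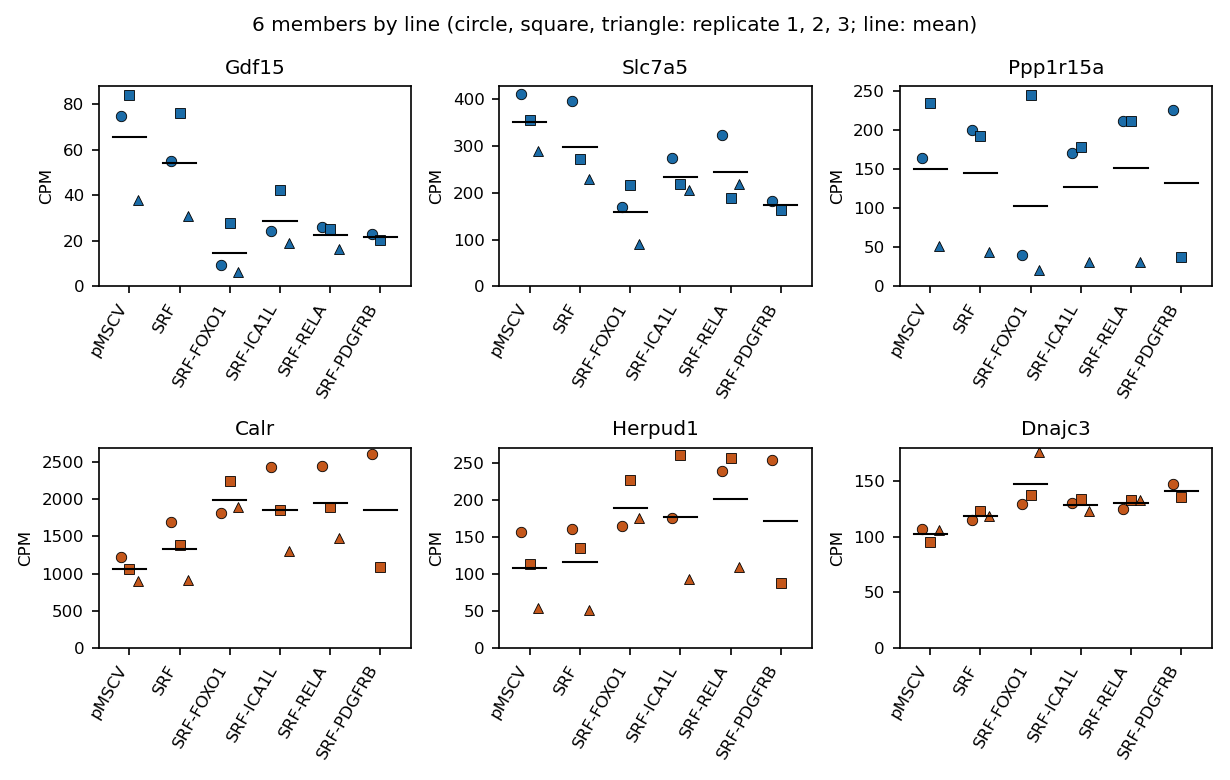
Level of 6 members in each library (y axis, CPM, from 0) by line; circles, squares and triangles are replicates 1, 2 and 3, and the bar is the mean. By mean, Gdf15 and Slc7a5 are highest in pMSCV and Calr, Herpud1 and Dnajc3 lowest there, and Ppp1r15a is low in replicate 3 of each line with 3, and also in SRF-FOXO1 replicate 1 and SRF-PDGFRB replicate 2.

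Of the 6 regulators in the amino-acid arm, Cebpb alone was called between lines. Atf4, the regulator itself, was at 817, 790.4 and 623 CPM in pMSCV, 823, 780.5 and 611 in SRF, 838, 729 and 553 in SRF-RELA, 693, 731 and 587 in SRF-ICA1L, 531, 771 and 397 in SRF-FOXO1, and 753 and 537 in SRF-PDGFRB. Replicate 3 was the lowest library in each line with 3, and the lines overlapped. Atf5, a related factor under similar translational control, was at 141, 175 and 102 CPM in pMSCV, 133, 124 and 72.1 in SRF, 168, 129 and 93.3 in SRF-RELA, 145, 154 and 95.9 in SRF-ICA1L, 102, 160.4 and 85.9 in SRF-FOXO1, and 192 and 76.6 in SRF-PDGFRB. Ddit3 (CHOP), a factor linked to death after prolonged stress, was at 52.9, 42.1 and 26.7 CPM in pMSCV, 61.4, 47.4 and 31.4 in SRF, 69.6, 42.3 and 28.3 in SRF-RELA, 60.8, 54.4 and 33.2 in SRF-ICA1L, 61.8, 73.6 and 32.7 in SRF-FOXO1, and 142 and 32.6 in SRF-PDGFRB. Its highest value was SRF-PDGFRB replicate 1, and the other SRF-PDGFRB library lay near the replicate 3 libraries. Trib3, a pseudokinase that restrains ATF4, was at 41.5, 38.5 and 11.3 CPM in pMSCV, 40.5, 26.5 and 11.2 in SRF, 34.1, 17.2 and 11.8 in SRF-RELA, 18.6, 23.1 and 11.7 in SRF-ICA1L, 18.3, 27.7 and 5.35 in SRF-FOXO1, and 35.6 and 9.12 in SRF-PDGFRB. Cebpb, a C/EBP factor that pairs with ATF4, was at 16.6, 33.5 and 11.3 CPM in pMSCV, 27.8, 30 and 12.8 in SRF, 28, 48.4 and 15.3 in SRF-RELA, 32.5, 42.6 and 16 in SRF-ICA1L, 18.9, 30.7 and 17.7 in SRF-FOXO1, and 45.9 and 15.3 in SRF-PDGFRB. Cebpb rose by 0.45 (log2, SE 0.11, adjusted p = 0.0377) in SRF-ICA1L and SRF-RELA averaged against both controls, a call lost without any 1 of 9 of the 12 libraries. Cebpg, another partner of ATF4, was at 48.9, 54.5 and 47.1 CPM in pMSCV, 48.4, 38.4 and 51.5 in SRF, 46.8, 41.8 and 57.1 in SRF-RELA, 41.6, 37.4 and 59.1 in SRF-ICA1L, 57.2, 37.3 and 65.8 in SRF-FOXO1, and 36.6 and 57.1 in SRF-PDGFRB and passed no test.

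Of the genes for serine and one-carbon synthesis, Phgdh, Psat1, Psph, Shmt2 and Mthfd2 followed the replicate number. Within each of pMSCV, SRF, SRF-RELA and SRF-ICA1L they were highest in replicate 1, and within SRF-FOXO1 in replicate 2. Phgdh, the first enzyme of serine synthesis, was at 487, 299 and 390.1 CPM in pMSCV, 499, 369 and 299.6 in SRF, 478, 172 and 302 in SRF-RELA, 396, 233 and 308 in SRF-ICA1L, 206, 291 and 125 in SRF-FOXO1, and 268 and 249.9 in SRF-PDGFRB. Psat1, the next enzyme, was at 711, 308 and 432 CPM in pMSCV, 657, 422 and 372 in SRF, 521, 234 and 359 in SRF-RELA, 537, 292 and 348 in SRF-ICA1L, 271, 331 and 177 in SRF-FOXO1, and 302 and 317 in SRF-PDGFRB. Psph, the last, was at 43.8, 43.5 and 27.5 CPM in pMSCV, 57.6, 36.5 and 21.9 in SRF, 47.7, 24.7 and 27.7 in SRF-RELA, 39.3, 28.2 and 23.7 in SRF-ICA1L, 22.1, 36.2 and 18.4 in SRF-FOXO1, and 36.6 and 20 in SRF-PDGFRB. Phgdh was lower in every SRF-FOXO1 and SRF-PDGFRB library than in any pMSCV or SRF library, and Psat1 was so against SRF alone. How many of all genes separated in this way is not given here. Shmt2, which makes mitochondrial one-carbon units from serine, was at 435, 348 and 403 CPM in pMSCV, 464, 345 and 334 in SRF, 384, 149 and 307 in SRF-RELA, 356, 207 and 310.0 in SRF-ICA1L, 169.9, 213 and 137 in SRF-FOXO1, and 181 and 225 in SRF-PDGFRB. Mthfd2, the next mitochondrial enzyme, was at 219, 119 and 145 CPM in pMSCV, 195, 138 and 121 in SRF, 147, 72.6 and 99.2 in SRF-RELA, 141, 99.3 and 99.1 in SRF-ICA1L, 77, 106 and 55.3 in SRF-FOXO1, and 85.8 and 88.7 in SRF-PDGFRB. Aldh1l2, which oxidizes mitochondrial formyl-tetrahydrofolate, was at 132, 177 and 69 CPM in pMSCV, 159, 115 and 79.2 in SRF, 107, 85.4 and 84.7 in SRF-RELA, 89.9, 109.5 and 78.8 in SRF-ICA1L, 91.5, 76.2 and 35.2 in SRF-FOXO1, and 54 and 49.7 in SRF-PDGFRB. Shmt2 and Mthfd2 did not overlap between SRF-FOXO1 and either control. Mthfd2 fell by 0.61 (log2, SE 0.13, adjusted p = 0.0211) in SRF-RELA against pMSCV in the blocked fit, a call lost without 5 of the 6 libraries one at a time. It fell by 0.51 (log2, SE 0.09, adjusted p = 0.00907) with SRF-ICA1L and SRF-RELA averaged, kept without any 1 library.

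Asns, which makes asparagine, was at 268, 238 and 147 CPM in pMSCV, 276, 174 and 136 in SRF, 199, 105 and 129 in SRF-RELA, 177, 127 and 125 in SRF-ICA1L, 94.5, 128 and 55.4 in SRF-FOXO1, and 116 and 94.5 in SRF-PDGFRB. It fell by 0.51 (log2, SE 0.12, adjusted p = 0.0305) in the averaged blocked comparison, kept in 5 of 12 fits that left out 1 library. Cth, which makes cysteine from cystathionine, was at 29.4, 33.9 and 10.3 CPM in pMSCV, 35.3, 11.7 and 11.2 in SRF, 15.2, 9.17 and 7.32 in SRF-RELA, 11.9, 7.23 and 7.14 in SRF-ICA1L, 13.2, 11.5 and 1.69 in SRF-FOXO1, and 9.32 and 3.16 in SRF-PDGFRB. It fell by 1.11 (log2, SE 0.23, adjusted p = 0.0198) in the same comparison, kept in 8 of 12. Both were under every pMSCV and SRF library in the 2 SRF-PDGFRB libraries, as Asns was in SRF-FOXO1.

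Among the transporters, Slc7a5, the light chain of the LAT1 importer of large neutral amino acids, was at 412, 354 and 289 CPM in pMSCV, 395, 272 and 229 in SRF, 323, 188 and 219 in SRF-RELA, 273, 218 and 206 in SRF-ICA1L, 169.6, 216 and 89.4 in SRF-FOXO1, and 183 and 164 in SRF-PDGFRB. All SRF-FOXO1, SRF-ICA1L and SRF-PDGFRB libraries lay under all pMSCV libraries, and SRF-RELA replicate 1 overlapped them. It fell by 0.60 (log2, SE 0.13, adjusted p = 0.0371) in SRF-ICA1L and fell by 0.55 (log2, SE 0.13, adjusted p = 0.0324) in SRF-RELA in the blocked fit, and each call was lost in all 6 fits that left out 1 library. Slc3a2, the heavy chain that carries Slc7a5 to the membrane, was at 343, 378 and 268 CPM in pMSCV, 323, 325 and 241 in SRF, 332, 277 and 200.2 in SRF-RELA, 285, 306 and 187 in SRF-ICA1L, 182, 351 and 133 in SRF-FOXO1, and 390.2 and 159.8 in SRF-PDGFRB. Slc7a11, the cystine importer, was at 49.4, 27.9 and 43.4 CPM in pMSCV, 47.4, 41.6 and 32.7 in SRF, 45, 28.6 and 42.9 in SRF-RELA, 46.4, 39.9 and 36.9 in SRF-ICA1L, 44.4, 27.6 and 14.9 in SRF-FOXO1, and 22.6 and 34 in SRF-PDGFRB, lowest in SRF-FOXO1 replicate 3. Slc7a3, an importer of basic amino acids, was near the floor at 1.89, 0.661 and 0.654 CPM in pMSCV, 1.32, 0.869 and 0.567 in SRF, 0.588, 0.365 and 0.42 in SRF-RELA, 0.915, 1.03 and 0.183 in SRF-ICA1L, 0.523, 0.656 and 0.714 in SRF-FOXO1, and 0.781 and 0.4 in SRF-PDGFRB.

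The remaining genes of the arm are outputs of stress. Chac1, which degrades glutathione, was at 60.5, 13.3 and 12.7 CPM in pMSCV, 54.9, 35.7 and 11.2 in SRF, 42.5, 27.2 and 16.2 in SRF-RELA, 30.1, 43.9 and 16.1 in SRF-ICA1L, 21.7, 56.3 and 9.59 in SRF-FOXO1, and 49.5 and 14.3 in SRF-PDGFRB. Sesn2, an inhibitor of mTORC1 signalling, was at 67.7, 49.6 and 26.2 CPM in pMSCV, 58.7, 53.7 and 20.7 in SRF, 40.2, 43.8 and 21.3 in SRF-RELA, 29.5, 55.2 and 21.1 in SRF-ICA1L, 29.9, 59.4 and 22.2 in SRF-FOXO1, and 61.6 and 18.9 in SRF-PDGFRB. Nupr1, a small nuclear stress protein, was at 83.6, 186 and 40.3 CPM in pMSCV, 99.9, 71.4 and 47.6 in SRF, 106, 102 and 66.5 in SRF-RELA, 92.3, 86.4 and 75.1 in SRF-ICA1L, 51.3, 101 and 109 in SRF-FOXO1, and 108 and 83.1 in SRF-PDGFRB. Their lines overlapped. Ppp1r15a (GADD34), the phosphatase subunit that reverses eIF2 phosphorylation, was at 164, 235 and 52.1 CPM in pMSCV, 201, 193 and 43.4 in SRF, 212, 211 and 31.3 in SRF-RELA, 171, 178 and 31 in SRF-ICA1L, 40.1, 245 and 21.5 in SRF-FOXO1, and 225 and 38.2 in SRF-PDGFRB. In order of level, 7 libraries lay between 21.5 and 52.1 CPM and the other 10 between 164 and 245, with none between. The lower ones were replicate 3 of 5 lines, SRF-FOXO1 replicate 1 and SRF-PDGFRB replicate 2. Vldlr, a lipoprotein receptor, was at 0.277, 2.29 and 0.421 CPM in pMSCV, 0.227, 0.686 and 0.697 in SRF, 0.147, 0.228 and 3.03 in SRF-RELA, 0.144, 0.313 and 1.79 in SRF-ICA1L, 0.305, 0.328 and 18.6 in SRF-FOXO1, and 0.367 and 7.21 in SRF-PDGFRB, low in most libraries and highest in SRF-FOXO1 replicate 3.

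In the endoplasmic reticulum arm, per kilobase of exon, Calr stood highest in pMSCV (368 CPM per kb), ahead of Hspa5 (210 CPM per kb) and Hsp90b1 (199 CPM per kb). Calr, the calcium-binding lectin chaperone calreticulin, was at 1222, 1057 and 899 CPM in pMSCV, 1697, 1383 and 909.9 in SRF, 2452, 1899.5 and 1484 in SRF-RELA, 2432, 1853 and 1304 in SRF-ICA1L, 1812, 2244 and 1897 in SRF-FOXO1, and 2612 and 1088 in SRF-PDGFRB. Every SRF-FOXO1, SRF-ICA1L and SRF-RELA library lay above every pMSCV library, and how many of all genes did so is not given here. It rose by 0.77 (log2, SE 0.12, adjusted p = 0.012) in SRF-ICA1L and rose by 0.85 (log2, SE 0.12, adjusted p = 0.004) in SRF-RELA in the blocked fit. The second call was kept without any 1 library, and the first was lost without pMSCV replicate 1, SRF-ICA1L replicate 1 or SRF-ICA1L replicate 2. Hspa5 (BiP), the main luminal chaperone and sensor regulator, was at 964, 1093 and 603 CPM in pMSCV, 1230.4, 1025 and 639 in SRF, 1723, 1589 and 764 in SRF-RELA, 1443, 1477 and 774 in SRF-ICA1L, 895, 1334 and 761 in SRF-FOXO1, and 1636 and 773 in SRF-PDGFRB. It rose by 0.57 (log2, SE 0.13, adjusted p = 0.0254) in SRF-RELA against pMSCV, lost without pMSCV replicate 1, SRF-RELA replicate 1 or SRF-RELA replicate 2. Hsp90b1 (GRP94), the luminal HSP90, was at 956, 740.0 and 706 CPM in pMSCV, 934, 815 and 785 in SRF, 936, 806 and 803 in SRF-RELA, 947, 793 and 848 in SRF-ICA1L, 763, 699.9 and 726 in SRF-FOXO1, and 733 and 829 in SRF-PDGFRB. It differed little, but every SRF-FOXO1 library lay below every SRF library.

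Herpud1, a membrane protein of the degradation machinery, was at 156, 113 and 54.2 CPM in pMSCV, 160.2, 134 and 51 in SRF, 238, 256 and 109 in SRF-RELA, 175, 259.9 and 92.7 in SRF-ICA1L, 165, 226 and 175 in SRF-FOXO1, and 254 and 88.1 in SRF-PDGFRB. In SRF-RELA it rose by 0.92 (log2, SE 0.17, adjusted p = 0.012) against pMSCV in the blocked fit, lost without SRF-RELA replicate 1 or 3. Dnajb9 (ERdj4), a co-chaperone of Hspa5, was at 24.1, 50.3 and 15.3 CPM in pMSCV, 28.4, 35.7 and 21 in SRF, 45.5, 72.6 and 25.7 in SRF-RELA, 42.9, 61.9 and 27.1 in SRF-ICA1L, 27, 61.5 and 45.8 in SRF-FOXO1, and 57.6 and 30.4 in SRF-PDGFRB. It rose by 0.72 (log2, SE 0.17, adjusted p = 0.0309) in SRF-RELA, lost in 5 of 6 fits without 1 library. Averaged over SRF-ICA1L and SRF-RELA against both controls, Hspa5, Dnajb9, Herpud1 and Calr rose by 0.46, 0.64, 0.79 and 0.67 on the log2 scale, and all 4 calls were kept without any 1 of 12 libraries. Dnajc3 (p58IPK), a co-chaperone that also restrains the kinase PERK, was at 107, 95.2 and 106 CPM in pMSCV, 115, 123 and 119 in SRF, 125, 133 and 133 in SRF-RELA, 130.0, 134 and 123 in SRF-ICA1L, 129, 137 and 176 in SRF-FOXO1, and 147 and 136 in SRF-PDGFRB. Every library of the other 5 lines lay above every pMSCV library, and how many of all genes did so is not given here. Every fusion library lay above every SRF library, but barely so for SRF-ICA1L replicate 3 (123.09 CPM) and SRF replicate 2 (123.02 CPM). Dnajc3 was not called in the blocked fit. Its largest difference from pMSCV was 0.53 (log2, SE 0.12, adjusted p = 0.0531) in SRF-FOXO1 without the block, and it passed the threshold with DESeq2.

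Pdia6 and Pdia4 are disulfide isomerases. Pdia6 was at 305, 279.8 and 249 CPM in pMSCV, 338, 322 and 290.1 in SRF, 405, 338 and 354 in SRF-RELA, 346, 326 and 325 in SRF-ICA1L, 319, 348 and 339.7 in SRF-FOXO1, and 352 and 302 in SRF-PDGFRB. It rose by 0.39 (log2, SE 0.10, adjusted p = 0.0429) in SRF-RELA in the blocked fit, lost in 5 of 6 fits without 1 library. Pdia4 was at 154, 116 and 141 CPM in pMSCV, 141, 124 and 128 in SRF, 152, 119 and 139.8 in SRF-RELA, 147, 115 and 140.1 in SRF-ICA1L, 125, 111 and 127 in SRF-FOXO1, and 105 and 132 in SRF-PDGFRB. Creld2, a secreted isomerase-like protein, was at 54.7, 40 and 75.2 CPM in pMSCV, 57.7, 55.5 and 67.3 in SRF, 78.6, 47.9 and 72 in SRF-RELA, 74.9, 57.2 and 72.9 in SRF-ICA1L, 43.7, 54.7 and 67.9 in SRF-FOXO1, and 56.8 and 71.6 in SRF-PDGFRB. Neither passed the test between lines. Sdf2l1, a partner of luminal co-chaperones, was at 14.9, 9.57 and 12.7 CPM in pMSCV, 18.5, 17.1 and 11.7 in SRF, 24.6, 17 and 12.5 in SRF-RELA, 16.5, 19.6 and 13 in SRF-ICA1L, 15.6, 23.2 and 17 in SRF-FOXO1, and 29 and 13.3 in SRF-PDGFRB. Manf, a luminal and secreted stress protein, was at 107, 93.5 and 82.3 CPM in pMSCV, 123, 106 and 92.3 in SRF, 134, 112 and 83.8 in SRF-RELA, 129.6, 108 and 87.1 in SRF-ICA1L, 86.7, 95.4 and 73.7 in SRF-FOXO1, and 94.9 and 83.9 in SRF-PDGFRB. Xbp1, the transcription factor of the IRE1 branch, was at 81.6, 213 and 67.5 CPM in pMSCV, 71.2, 102 and 62.8 in SRF, 101, 174 and 74.4 in SRF-RELA, 78, 152 and 84.5 in SRF-ICA1L, 88.3, 109.9 and 98.4 in SRF-FOXO1, and 105 and 104 in SRF-PDGFRB, where spliced and unspliced forms are not separated. None of these 3 passed the test between lines. Hyou1, a nucleotide exchange factor for Hspa5, was at 211, 129 and 155 CPM in pMSCV, 197, 147 and 126 in SRF, 201, 145 and 144 in SRF-RELA, 191, 146 and 145 in SRF-ICA1L, 126, 147 and 129 in SRF-FOXO1, and 158 and 136 in SRF-PDGFRB. Edem1, which directs misfolded glycoproteins to degradation, was at 90.9, 93.5 and 63.1 CPM in pMSCV, 90.5, 85.5 and 67.5 in SRF, 86.7, 107 and 67.8 in SRF-RELA, 83.5, 111 and 70.1 in SRF-ICA1L, 90, 78.5 and 62.9 in SRF-FOXO1, and 75.2 and 65.9 in SRF-PDGFRB. Their lines overlapped.

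**Figure D4:**
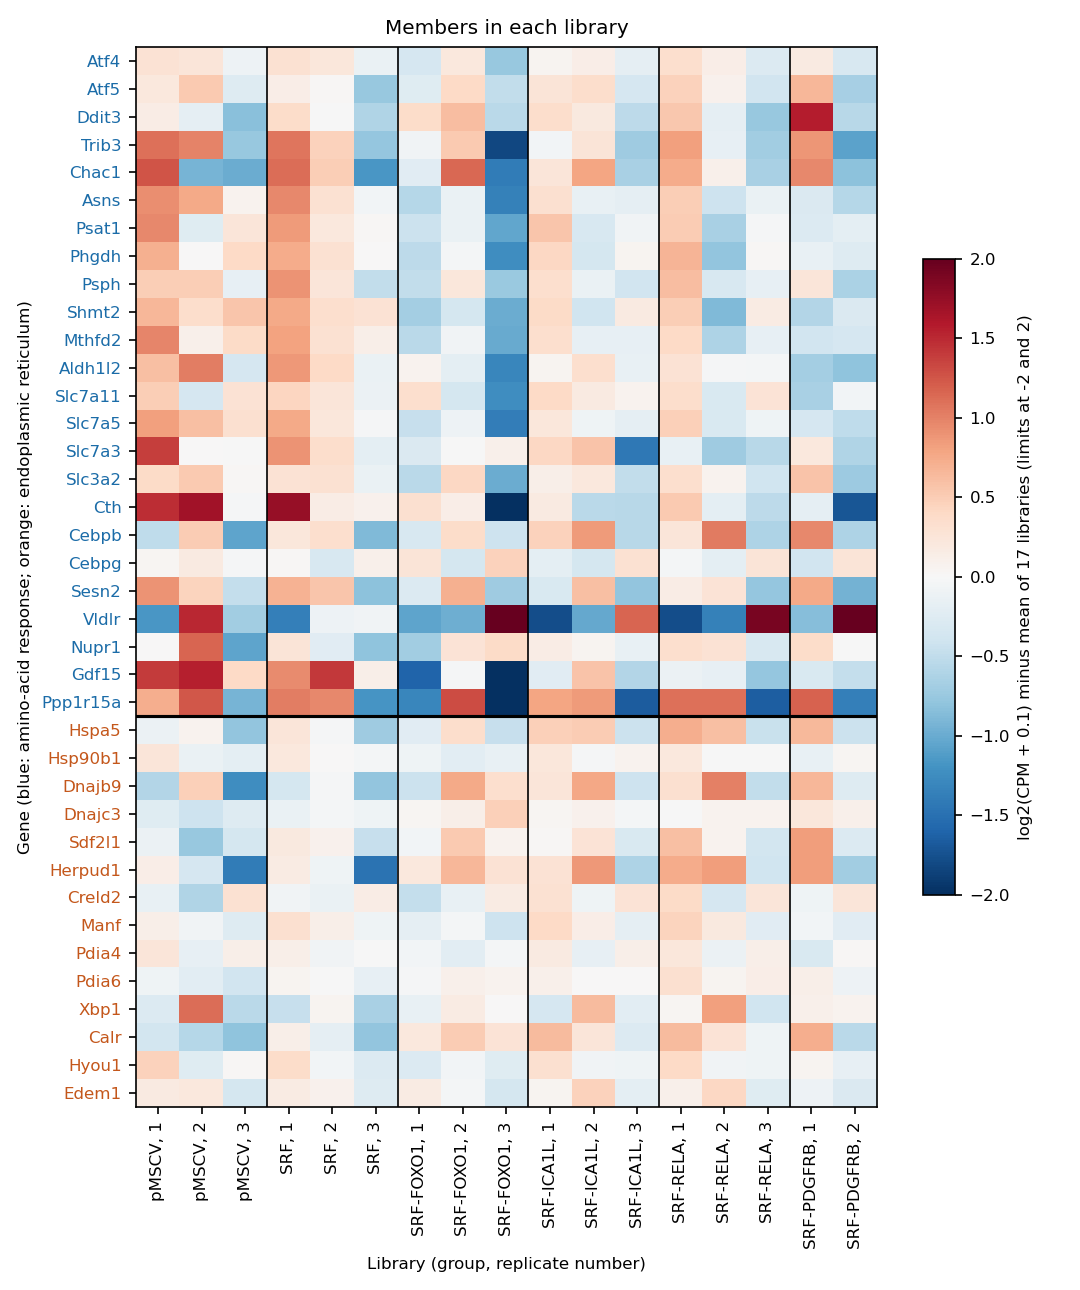
Level of each of the 38 members (rows) in each of the 17 libraries (columns) as log2(CPM + 0.1) minus the gene's mean; red is higher and blue lower, limited at -2 and 2. Replicate 3 columns are blue through most of the amino-acid arm, deepest in SRF-FOXO1 replicate 3, and the endoplasmic reticulum arm is paler outside Dnajb9, Herpud1, Xbp1, Sdf2l1, Calr and Hspa5.

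Many members differed between replicate numbers, and what the number stands for is not given in the sources used here. Over the 12 libraries of SRF-RELA, SRF-ICA1L, SRF and pMSCV, 16 of 24 amino-acid genes were lower and 0 higher in replicate 3 than in replicates 1 and 2 averaged, with 8 of 14 endoplasmic reticulum genes lower and 1 (Creld2) higher. Of all 14937 genes in this fit of 12 libraries, 30.2% were called, 15.0% lower and 15.3% higher. With all 17 libraries fitted, 4 endoplasmic reticulum genes were called lower and 0 higher. The amino-acid count and the share of all genes called in that fit are not given here. At an unadjusted p under 0.05, 29.8% of all 15062 genes passed in the 17, against 42.7% in the 12. In the 12 libraries the arm medians were -0.62 and -0.41, and that of all genes was close to 0. Ppp1r15a fell by 2.33 (log2, SE 0.15, adjusted p = 2.06e-05), Chac1 fell by 1.41 (log2, SE 0.31, adjusted p = 0.00921) and Trib3 fell by 1.31 (log2, SE 0.20, adjusted p = 0.00147). Herpud1 fell by 1.31 (log2, SE 0.14, adjusted p = 0.000181), Dnajb9 fell by 0.97 (log2, SE 0.13, adjusted p = 0.000701) and Hspa5 fell by 0.90 (log2, SE 0.10, adjusted p = 0.000245). Of the serine genes only Psph passed; Psat1, Phgdh, Shmt2 and Mthfd2 gave -0.19, -0.11, 0.08 and -0.23. Of the genes with the endoplasmic reticulum stress response element shown above, Hspa5 and Calr fell. Creld2 rose by 0.33 (a call kept in 2 of 12 fits without 1 library), and Dnajc3 (0.00) and Pdia6 (-0.13) did not pass. Hsp90b1, which also holds the element, did not pass either.

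Replicate 3 was the lowest of 3 libraries in all 4 lines for 13 amino-acid and 6 endoplasmic reticulum genes. In SRF-FOXO1, which was outside the fit, it was lowest for 20 of 24 and 3 of 14, counts that rest on 1 library. The share of all genes that were lowest in replicate 3 is not given here for any of these counts. Of the calls, 10 of 16 and 7 of 9 were kept in all 12 fits that left out 1 library. The summed myoblast markers were highest in replicate 3 in each of the 4 lines (1266 CPM against 909 and 1107 in pMSCV, 1006 against 499 and 519 in SRF, 498 against 220 and 396 in SRF-RELA, and 769 against 286 and 410 in SRF-ICA1L). The summed fibroblast-like or pericyte-like markers (3 of 5 with a row) were lowest there (158 CPM against 236 and 451 in pMSCV, 177 against 350 and 339 in SRF, 387 against 453 and 568 in SRF-RELA, and 315 against 343 and 529 in SRF-ICA1L). Single markers did not all follow these sums. Des, Myf5 and Pax7 were highest in replicate 2 of pMSCV, but in replicate 3 of SRF, SRF-RELA and SRF-ICA1L. Pdgfra was lowest in replicate 3 of pMSCV and SRF, but in replicate 1 of SRF-RELA and SRF-ICA1L. The summed markers of differentiating muscle were highest in replicate 3 of pMSCV, SRF and SRF-ICA1L, and lowest in replicate 3 of SRF-RELA. The part of these markers in this result was not tested.

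Between replicates 2 and 1, the serine and one-carbon genes were among those that differed. Here 9 amino-acid genes were lower and 1 higher, and 6 endoplasmic reticulum genes lower and 2 higher, where 35.2% of all genes were called (17.2% lower and 18.0% higher). Psat1 fell by 0.96 (log2, SE 0.13, adjusted p = 0.00161), Phgdh fell by 0.83 (log2, SE 0.17, adjusted p = 0.0058) and Mthfd2 fell by 0.72 (log2, SE 0.11, adjusted p = 0.00277). Xbp1 rose by 0.92 (log2, SE 0.16, adjusted p = 0.00352) and Dnajb9 rose by 0.66 (log2, SE 0.14, adjusted p = 0.00788), while Hyou1 fell by 0.50 (log2, SE 0.09, adjusted p = 0.00476). Ppp1r15a differed by 0.12 (SE 0.15) and Atf4 by -0.07 (SE 0.09), and neither passed. Of the 10 and 8 calls, 5 (Psat1, Phgdh, Shmt2, Mthfd2 and Slc7a5) and 3 (Dnajb9, Xbp1 and Hyou1) were kept in every fit without 1 library. When all 17 libraries were fitted, 0 members were called for this contrast in either arm by edgeR, with 4 and 3 at an unadjusted p under 0.05, as were 19.0% of all genes.

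**Figure D5:**
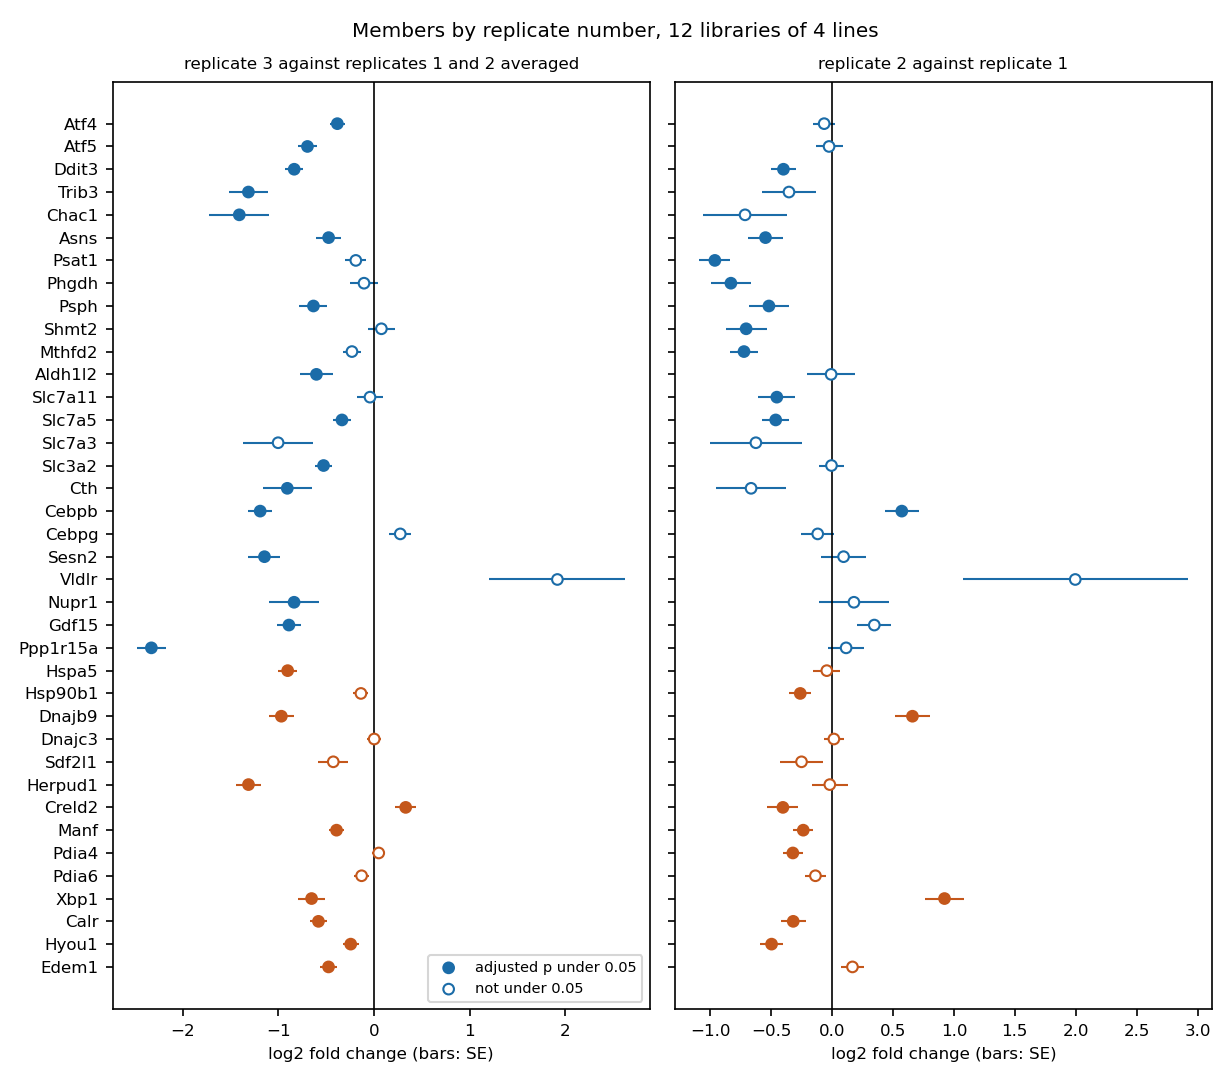
Log2 fold change of each member (x axis; bars are SE) for replicate 3 against replicates 1 and 2 (left) and replicate 2 against replicate 1 (right) in 12 libraries; filled points have an adjusted p under 0.05. Ppp1r15a lies farthest to the left on the left panel at -2.33, and Psat1 does on the right panel at -0.96.

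Other genes of the pathway, from lists beside the members, are read against the 30.2% of all genes called for replicate 3 and the 35.2% called for replicate 2. Of 14 aminoacyl-tRNA synthetase and export genes, 13 were lower in replicate 2 than in replicate 1 and 0 higher, with Iars, which charges isoleucine, at -0.79 (SE 0.14). In replicate 3 only 4 of the 14 were lower, led by Sars at -0.71 (SE 0.10), which is near the share of all genes. Of 16 genes for stress sensors and translation control, 3 were lower and 3 higher in replicate 3, and Atf3, a stress-induced repressor, fell by 2.76 on the log2 scale (SE 0.22), and Ddit4, an mTORC1 inhibitor, fell by 1.96 (SE 0.22). Of 20 other endoplasmic reticulum folding and degradation genes, 5 were lower and 2 higher in replicate 3, and 2 lower and 4 higher in replicate 2. Of 16 other amino-acid genes, 5 were lower in replicate 3, and 7 lower and 2 higher in replicate 2. For replicate 3, these last 2 lists were also near the share of all genes. The 8 cytosolic heat shock genes gave 2 lower and 2 higher in replicate 3 and 3 and 3 in replicate 2. Of 7 mitochondrial chaperones and proteases, 2 were lower and 2 higher in replicate 3, and 4 lower in replicate 2.

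Between lines, 0 genes of these 6 lists were called without the block. In SRF-FOXO1 against pMSCV all 14 synthetase genes had a negative log2 difference, with a median of -0.59 and 8 at an unadjusted p under 0.05, against 20.9% of all genes. In the blocked fit of SRF-RELA against pMSCV, Wfs1, an endoplasmic reticulum membrane protein, fell by 1.32 (SE 0.18), Stc2, a secreted ATF4 target, fell by 0.91 (SE 0.20), and Sec24d, a coat protein of vesicles leaving the endoplasmic reticulum, rose by 0.75 (SE 0.11) on the log2 scale. These are single examples and do not stand for their lists. The counts of list genes called in that fit are not given here, and 6.15% of all genes were called.

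Within the groups, members tended to vary together across the 17 libraries, which share depth, preparation and replicate number. The median correlation was lower within the endoplasmic reticulum arm than between the arms. The median Spearman rho of deviations from the group mean was 0.578 over 276 pairs in the amino-acid arm, 0.336 over 91 pairs in the endoplasmic reticulum arm, 0.435 over 336 pairs between the arms, and 0.00 over all pairs of genes. Psat1 was most like Mthfd2 (0.968), Atf4 most like Trib3 (0.961), and Hspa5 most like Atf5 of the other arm (0.953). In the 12 paired libraries, replicate number took 96.1% of the variance of Ppp1r15a and 90.3% of that of Ddit3, whereas line took 87.6% of the variance of Dnajc3, 68.9% of that of Pdia6 and 63.4% of that of Gdf15. The median over all genes was 49.6% for replicate number and 19.5% for line.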

How the data were processed

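RNA from 17 libraries of 6 C2C12 groups was made into stranded mRNA libraries, per the labels' protocols. The authors deposited 1 table of raw counts per gene, per the file headers. The submitters' processing notes name FastQC 0.11.8, Trimmomatic 0.39, HISAT2, featureCounts, Subread 2.0.0 and build GRCm38; the strand setting, annotation release and gene filter are not given in the sources used here, so reads of overlapping genes may be shared. Counts were tested with edgeR 4.0.16 in R 4.3.3 (TMM scaling, robust quasi-likelihood test, Benjamini-Hochberg adjustment over all genes, calls at an adjusted p under 0.05). Lines were compared over 17 libraries by group, which was the planned test, and the blocked fit was an alternative to it. Replicate numbers were compared, and the blocked values computed, over the 12 libraries of SRF-RELA, SRF-ICA1L, SRF and pMSCV with group and number as terms, since same-numbered libraries of those 4 lines deviated together from their group means in all pairs of groups. SE is the size of the log2 fold change divided by the square root of F. DESeq2 1.42.0, other scalings and filters, and leaving out each library were alternatives. The fits were tested on simulated data.

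The members, lists and rules were chosen with earlier results of these data known. By the naming rule, members in a fixed short list, members called in any fit, and the lowest p values of each arm are given in every library; here all 38 are. Promoter sequences are from RefSeq (GRCm38.p6), and exon overlap and exon lengths are from GENCODE.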

Additional observations from a re-analysis of the deposited data

How the results depend on the processing

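Without replicate number, the count of members called between lines was 0 in each arm of each comparison. It was also 0 with other size factors, and with library totals in place of TMM scaling. It changed as follows. For SRF-FOXO1 against pMSCV, 6 amino-acid and 2 endoplasmic reticulum genes were called with a replicate block in all 17 libraries (Gdf15 at -2.30), 5 and 1 with DESeq2, and 1 endoplasmic reticulum gene (Dnajc3) with a filter of 1 CPM in 3 libraries. For SRF-FOXO1 against SRF, 1 amino-acid gene was called with the block or with those groups alone, and 2 with DESeq2. The block in 17 libraries called 1 amino-acid gene (Gdf15) in SRF-PDGFRB against pMSCV, and 7 and 2 genes of the arms for the 4 fusions averaged, where DESeq2 also called 7 and 2. The block in 12 libraries called 2 and 1 genes in SRF-ICA1L and 3 and 5 in SRF-RELA against pMSCV, 1 amino-acid gene in SRF-RELA against SRF, and 6 and 4 for SRF-ICA1L and SRF-RELA averaged; in other comparisons the block changed no call. The planned test between lines had no replicate term, and the blocked fit of 12 libraries was an alternative to it. Leaving out 1 library under the block was added after seeing the data. DESeq2 under the same block was also added then. Against pMSCV it called 7 and 5 genes in SRF-ICA1L and 7 amino-acid genes in SRF-RELA, whose endoplasmic reticulum count is not given here. Against SRF it called 1 and 2 in SRF-ICA1L and 2 and 4 in SRF-RELA. Fitting all 17 libraries called 4 endoplasmic reticulum genes for replicate 3 (the amino-acid count is not given here), and 0 and 0 members for replicate 2 against 1. The causes of these changes were not tested.

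Leaving out 1 library at a time gave 0 to 1 amino-acid genes for SRF-FOXO1 against pMSCV (1 without SRF-FOXO1 replicate 2), and 0 to 3 and 0 to 2 for the 4 fusions averaged (3 without pMSCV replicate 2, 2 and 2 without SRF-PDGFRB replicate 2, 1 without SRF-FOXO1 replicate 2). It gave 11 to 19 and 7 to 9 for replicate 3, and 6 to 12 and 3 to 7 for replicate 2, lowest without SRF-RELA replicate 2 and SRF-ICA1L replicate 2. In the blocked fits it gave 1 to 2 and 0 to 2 for SRF-ICA1L against pMSCV, 1 to 3 and 1 to 5 for SRF-RELA against pMSCV, 0 to 1 amino-acid genes for SRF-RELA against SRF, and 2 to 8 and 4 to 5 for the average of both lines. No member changed direction in a called result. Depth limits Slc7a3 (4 to 41 counts per library) and Vldlr (3 to 417) most.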
